A study of Mus musculus with 6 samples.

Results

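Integrins are the adhesion receptors with which T cells hold on to vessel walls, antigen-presenting cells and tissue matrix. The 9 integrin genes described here were *Itga1*, *Itga4*, *Itgae*, *Itgal*, *Itgav*, *Itgb1*, *Itgb2*, *Itgb3* and *Itgb7*, chosen by name from the 32285 genes of the count tables, with earlier results of these data known. They were followed in 4 single-cell libraries of CD8 T cells sorted as CD45+ CD3+ CD8+ Tomato+ from B16-OVA tumors, a mouse melanoma line that expresses ovalbumin, and from the draining lymph nodes (LN), at day 12. Control mice were CD8-Cre Rosa26Tomato, and CD8-IFNγRKO mice were CD8-Cre Rosa26Tomato IFNgR1 flox/flox, so that both genotypes carried the Cre and the reporter and the receptor gene was deleted only where the CD8-driven Cre had acted. Cells of 3 mice were pooled into 1 library of 5′ transcript ends per tissue and genotype, and no value tied a cell to a mouse. Each comparison therefore set 1 library against 1 library, with no test, and the 95% intervals given in brackets cover counting error only, not the spread between mice.

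An integrin is a pair of 1 α and 1 β chain, and the pair decides what is bound. *Itgal* and *Itgb2* encode LFA-1, the receptor for ICAM proteins that holds a T cell to its target or to the endothelium. *Itga4* pairs with *Itgb1* into VLA-4, which binds VCAM-1 and fibronectin, or with *Itgb7* into the receptor for MAdCAM-1 on gut and mucosal vessels. *Itgae* encodes CD103, which pairs with *Itgb7* only and binds E-cadherin on epithelium. *Itgav* forms receptors for vitronectin and other RGD proteins, one of them with *Itgb3*, and *Itga1* with *Itgb1* forms the collagen receptor VLA-1 known from tissue-resident T cells.

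The libraries held 7022 control and 8591 CD8-IFNγRKO tumor cells with a median of 6265 and 9355 UMIs per cell (unique molecular identifiers, each read as 1 captured RNA molecule), and 6638 and 6730 LN cells with a median of 4050.5 and 3863. The 8 CD8 T cell markers were found in every library. The 5 platelet markers, which matter for *Itgb3*, summed to at most 0.161 CPM, where 1 CPM is 1 of 1000000 UMIs of the library, and the 12 macrophage and dendritic cell markers to 248 and 220 CPM in control and CD8-IFNγRKO tumors and 80.7 and 78.5 CPM in LN, most of it from *Cst3*. Pairs of libraries shared 169 to 249 cell barcodes. The targeted gene *Ifngr1* was at 722 CPM in control and 238 CPM in CD8-IFNγRKO tumors, and at 182 and 137 CPM in LN.

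The α4 chain and its alternative β partners carried most of what follows, and the 250 bases before their transcription starts are shown for that reason. RefSeq promoter windows on GRCm38.p6, the assembly of the mm10 build named for the files, were matched for 5 of the 9 genes. Capitals mark the core motif of RUNX factors, TGTGGT, on either strand. The core of the site bound after IFNγ signaling, TTCNNNGAA, was searched on both strands as well. 
*Itga4*, plus strand, chr2:79255176-79255425: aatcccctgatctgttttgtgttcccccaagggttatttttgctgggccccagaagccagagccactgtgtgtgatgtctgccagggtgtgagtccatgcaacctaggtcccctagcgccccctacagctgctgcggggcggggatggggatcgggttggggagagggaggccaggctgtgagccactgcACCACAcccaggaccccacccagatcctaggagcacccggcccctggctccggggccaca
*Itgb1*, plus strand, chr8:128685404-128685653: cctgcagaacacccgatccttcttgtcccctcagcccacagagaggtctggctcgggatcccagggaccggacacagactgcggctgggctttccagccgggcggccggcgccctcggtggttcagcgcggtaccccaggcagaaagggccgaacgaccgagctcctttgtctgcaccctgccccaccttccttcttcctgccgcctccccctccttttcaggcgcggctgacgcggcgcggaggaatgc
*Itgb7*, minus strand, chr15:102231936-102232185: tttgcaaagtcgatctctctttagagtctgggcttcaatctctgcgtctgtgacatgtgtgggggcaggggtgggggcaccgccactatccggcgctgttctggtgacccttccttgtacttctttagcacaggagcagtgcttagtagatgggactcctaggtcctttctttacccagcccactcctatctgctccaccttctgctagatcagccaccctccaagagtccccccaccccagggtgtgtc
The RUNX core stood once in the *Itga4* window, on the minus strand 55 bases before the start, and not in the other windows printed. It was held by 14.0% of all 32851 promoter windows of this length, and the IFNγ site core, which none of these windows held, by 7.02%. The windows of *Itga4* and *Itgb1* end 1 base before the annotated genes begin (chr2:79255426-79333114 and chr8:128685654-128733579), and that of *Itgb7* lies inside the annotated span of the gene (chr15:102215994-102233405).

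The tumor and LN libraries differed more in integrin genes than the genotypes did. *Itgb2* was at 548 (542 to 554) CPM in control tumors, 431 (427 to 436) CPM in CD8-IFNγRKO tumors, 201 (196 to 206) CPM in control LN and 204 (198 to 209) CPM in CD8-IFNγRKO LN. In the same order of libraries, *Itgal* was at 192, 169, 104 and 107 CPM. *Itgb7* was at 58.2 (56.2 to 60.2), 53.2 (51.7 to 54.7), 332 (326 to 339) and 320 (314 to 327) CPM, so that both LN libraries lay above both tumor libraries. *Itgae* was at 0.604 (0.421 to 0.840), 0.429 (0.307 to 0.585), 86.2 (82.9 to 89.5) and 85.1 (81.8 to 88.6) CPM, which in tumors rested on 35 and 40 UMIs.
*Itga4* was at 78.3 (76.1 to 80.6), 164 (161 to 167), 77.3 (74.1 to 80.5) and 85.1 (81.7 to 88.5) CPM, and only the CD8-IFNγRKO tumor library stood apart. *Itgb1* was at 157 (154 to 160), 211 (208 to 214), 49.2 (46.7 to 51.8) and 40.2 (37.9 to 42.6) CPM. *Itgav* was at 96.6, 86.7, 11.8 and 12.5 CPM, and *Itgb3* at 36.0, 22.2, 3.98 and 5.10 CPM, both higher in tumors. *Itga1* was at 24.8 and 17.3 CPM in tumors, with 6 UMIs in control LN and 0 UMIs in CD8-IFNγRKO LN, where a floor of 3 counts stands at 0.104 CPM and the exact upper limit at 0.128 CPM.

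**Figure D1:**
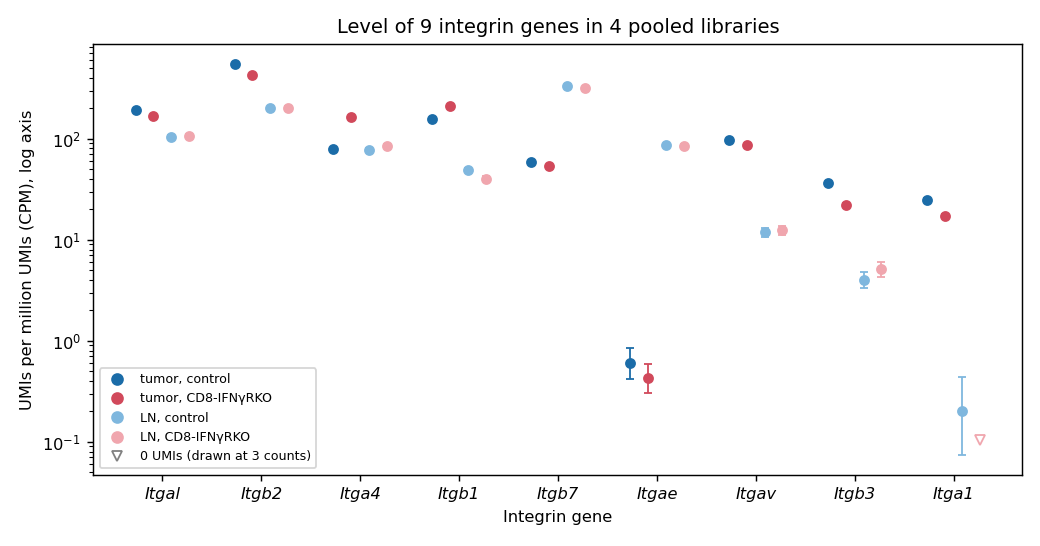
Level of each integrin gene (CPM, log axis) in the 4 libraries, as points with exact Poisson 95% intervals. *Itgb7* and *Itgae* lay higher in both LN libraries, *Itga4* stood out in the CD8-IFNγRKO tumor library at 164 CPM, and the open triangle stands for the 0 UMIs of *Itga1* in CD8-IFNγRKO LN, drawn at 3 counts.

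The first comparison asked how the loss of the IFNγ receptor on CD8 T cells went with integrin expression in tumors. *Itga4* was the only one of the 9 genes that was higher in CD8-IFNγRKO tumors by 1.5-fold or more, with a log2 ratio of 1.06 (1.01 to 1.10) after adding 1 CPM to both levels. *Itgb3* was the only one lower by that much, at -0.68 (-0.76 to -0.59). Of the 9 genes, 8 reached 20 CPM in 1 of the tumor libraries or both, and 1 of these was thus higher and 1 lower. Over all 5800 genes with that level, 4.79% were higher and 3.64% lower, with a median log2 ratio of 0.02, so that 1 gene each way is not read as a shift of the list.
*Itgb1*, the β partner of VLA-4, was at 0.42 (0.39 to 0.46), and *Itgb7*, the other β partner of the α4 chain, at -0.13 (-0.19 to -0.06). The part of *Itgb1* in the UMIs of these β chains was accordingly 73.0% (72.2 to 73.8%) in control and 79.9% (79.4 to 80.4%) in CD8-IFNγRKO tumors. The LFA-1 chains were slightly lower in CD8-IFNγRKO tumors, *Itgal* at -0.19 (-0.23 to -0.16) and *Itgb2* at -0.35 (-0.37 to -0.32). *Itgav* was at -0.15 (-0.20 to -0.10) and *Itga1* at -0.50 (-0.59 to -0.40), while the interval of *Itgae*, -0.40 to 0.07, held 0.

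The depth of the cells differed between the tumor libraries, as given above. With every cell thinned to 1600 UMIs, 11.4% (10.6 to 12.2%) of control and 24.5% (23.6 to 25.5%) of CD8-IFNγRKO tumor cells held a UMI of *Itga4*, and with all UMIs 35.1% and 68.2%. The same thinned shares of *Itgb3* were 5.62% (5.06 to 6.21%) and 3.64% (3.25 to 4.07%). For *Itgb1* they were 22.7% and 27.2%, and for *Itgb2* 58.2% and 49.1%. The share of *Cd79b*, a B cell receptor gene taken as the level of free RNA, was 0.0791% and 0.541% in the same cells. This was the highest share among the 4 B cell genes counted.

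As large clones made up most of the tumor cells, the *Itga4* difference was then read clone by clone. A clone was all cells of a library with the same α and β T cell receptor chains, which were found together in 60.7% of control and 68.8% of CD8-IFNγRKO tumor cells. The 3 largest control clones, of 1101, 997 and 511 cells, held 61.2% of the control cells with a clone and were low in *Itga4*, at 48.6 (43.9 to 53.7), 65.7 (60.3 to 71.4) and 37.0 (31.4 to 43.4) CPM. The 3 largest CD8-IFNγRKO clones, of 1457, 1194 and 311 cells, held 50.1% and were at 152 (146 to 158), 149 (143 to 156) and 208 (193 to 225) CPM.
The 7 other control clones of 50 or more cells were spread widely. The clone of 153 cells was at 223 (196 to 253) CPM, that of 172 cells at 166 (141 to 194) CPM and that of 55 cells at 51.8 (29.6 to 84.1) CPM. Over all 10 such control clones *Itga4* ran from 37.0 to 223 CPM with a median of 84.8, and over 21 CD8-IFNγRKO clones from 98.7 to 269 CPM with a median of 163. The ranges overlapped, and 6 of the 10 control clones lay below the lowest CD8-IFNγRKO clone. *Itga4* was not alone in this. For *Itgb2*, 19 of the 21 CD8-IFNγRKO clones lay below the lowest control clone, and for *Itgb3* 8 did. No such count was made over all genes, and the lowest and highest clones were taken from unequal numbers of clones. These counts are therefore not read as a result about these genes. Clones of 1 library share that library, and the mice they came from are not known, so these are not replicates.

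**Figure D2:**
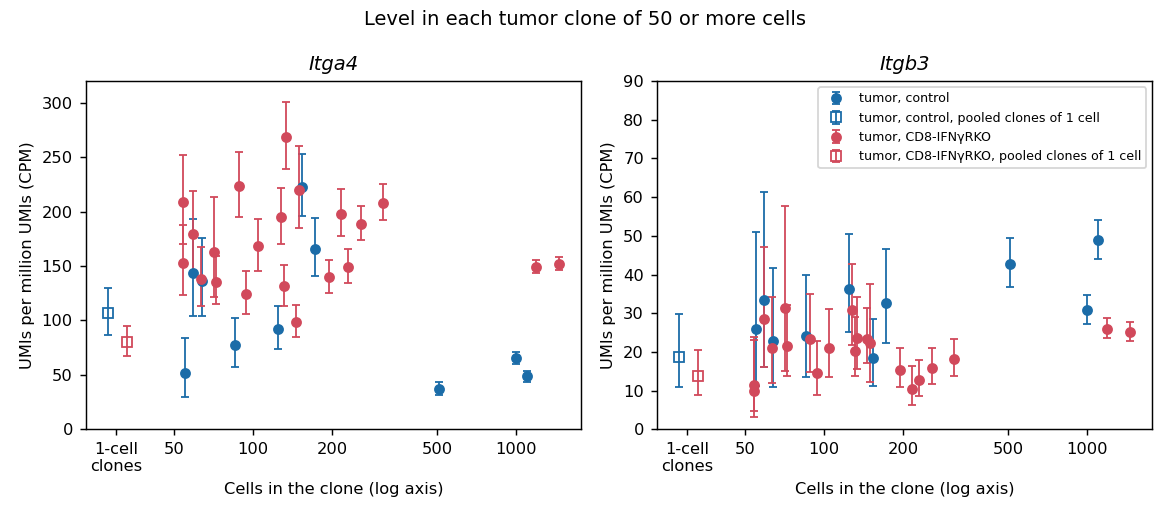
Level of *Itga4* (left) and *Itgb3* (right) in CPM against the number of cells in the clone (log axis), with a point for each tumor clone of 50 or more cells and its exact Poisson 95% interval. Squares at the left are all clones of 1 cell pooled. The largest control clones lay at 37.0 to 65.7 CPM of *Itga4*, while smaller control clones reached 223 CPM.

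The size of the *Itga4* difference varied with the clones counted. In the 3 largest clones of each library pooled, the log2 ratio of CD8-IFNγRKO over control was 1.53 (1.44 to 1.63). In the other clones of 10 or more cells it was 0.42 (0.32 to 0.52), from 164 and 123 CPM. In clones of 2 to 9 cells it was 0.49 (0.18 to 0.80), and in clones of 1 cell the sign turned, at -0.41 (-0.79 to -0.02), from 140 UMIs in 364 CD8-IFNγRKO cells and 97 UMIs in 182 control cells. The median log2 ratio over all genes was -0.04 in clones of 1 cell, which lies inside that interval. Each of the 9 integrin genes lay below 0 there, lowest *Itgav* at -1.08 (-1.80 to -0.36), and the share of all genes below 0 was not counted. *Itgal*, *Itgb2*, *Itgb7*, *Itgav*, *Itgb3* and *Itga1* were below 0 in clones of 10 or more cells too, so their sign did not turn. *Itgb1* turned as *Itga4* did, and so did *Itgae*, from 11 CD8-IFNγRKO UMIs and 1 control UMI in clones of 10 or more cells. Cells with no clone gave 1.14 (1.07 to 1.21). With the 3 largest clones of each library left out of all cells the ratio was 0.87 (0.81 to 0.93), an alternative added after the data were seen. The 5629 CD8-IFNγRKO and 4413 control cells left still held the 2680 and 2759 cells with no clone. Some of these may belong to the 3 largest clones, so 0.87 is not a ratio free of those clones.
*Itgb1* was at 0.58 (0.52 to 0.64) in the 3 largest clones, 0.11 (0.03 to 0.19) in the other clones of 10 or more cells, 0.62 (0.38 to 0.86) in clones of 2 to 9 cells and -0.35 (-0.59 to -0.11) in clones of 1 cell. Its ratio thus turned sign in clones of 1 cell as that of *Itga4* did, with no order over the other sizes. *Itgb3* was at -0.67 (-0.80 to -0.54) in the 3 largest and -0.66 (-0.88 to -0.44) in the other clones of 10 or more cells. In clones of 2 to 9 cells it was at -1.01 (-1.74 to -0.29). In clones of 1 cell it was at -0.42 (-1.32 to 0.51), from 24 UMIs in CD8-IFNγRKO and 17 in control cells. Over clones of 50 or more cells *Itgb3* ran from 18.4 to 48.9 CPM in control and from 9.93 to 31.3 CPM in CD8-IFNγRKO tumors.

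The same genotype comparison was made among tumor cells parted by *Tcf7*, a transcription factor gene of stem-like CD8 T cells, and *Lag3*, an inhibitory receptor gene of exhausted ones. Tcf7+Lag3- cells had a UMI of *Tcf7* and none of *Lag3* after thinning to 1600 UMIs, and Tcf7-Lag3+ cells the reverse. The study sorted its stem-like and exhausted cells on TCF1 and LAG3 among PD-1+ cells only, whereas PD-1 was not asked for here. A UMI of *Pdcd1*, the PD-1 gene, was found in 18.2% of Tcf7+Lag3- and 71.3% of Tcf7-Lag3+ control cells, and in 17.8% and 62.4% in CD8-IFNγRKO tumors, so that the Tcf7+Lag3- cells are not called stem-like.
Tcf7+Lag3- cells were 2.26% of control and 4.61% of CD8-IFNγRKO tumor cells, and Tcf7-Lag3+ cells 69.5% and 50.3%. *Itga4* was at 172 CPM in CD8-IFNγRKO and 78.8 CPM in control Tcf7-Lag3+ cells, a log2 ratio of 1.12 (1.06 to 1.18), and at 129 and 91.0 CPM in Tcf7+Lag3- cells, 0.50 (0.09 to 0.93). Among cells with a *Pdcd1* UMI, an alternative added after the data were seen, these ratios were 1.13, with a lower limit of 1.06, and 0.89 (0.14 to 1.71), the latter from 76 and 18 UMIs. Cells with neither *Tcf7* nor *Lag3* gave 1.06 (0.98 to 1.15). Cycling cells, with a UMI of *Mki67* or *Top2a*, gave 1.10 (1.01 to 1.19) and the others 1.06 (1.00 to 1.12). *Itgb3* was at -0.63 (-0.74 to -0.52) in Tcf7-Lag3+ and -0.24 (-1.09 to 0.66) in Tcf7+Lag3- cells, where it rested on 36 and 16 UMIs. Larger ratios than that of *Itga4* were found in Tcf7+Lag3- cells. *Itgav* was at -1.04 (-1.71 to -0.36) there, from 42 and 33 UMIs, and *Itgae* at -1.41 (-2.56 to -0.22), from 11 and 12. *Itgb1* was at 0.04 (-0.21 to 0.29) in Tcf7+Lag3- and 0.50 (0.45 to 0.55) in Tcf7-Lag3+ cells. In Tcf7+Lag3- cells the intervals of *Itgal*, *Itgb2*, *Itgb7* and *Itga1* held 0 as well.

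In LN, no integrin gene differed between the genotypes by 1.5-fold. Of the 6 genes that reached 20 CPM in LN, 0 were higher and 0 lower, where 0.108% and 0.197% of 5575 genes were, and the median log2 ratio over all of them was 0.03. *Itga4* was at 0.14 (0.06 to 0.22) and *Itgb7* at -0.05 (-0.10 to -0.01). *Itgb1* was at -0.29 (-0.40 to -0.18), opposite in sign to its ratio in tumors. In LN cells with a UMI of *Ccl5*, a chemokine gene of antigen-experienced CD8 T cells, *Itgb1* was at 103 CPM in CD8-IFNγRKO and 158 CPM in control mice, -0.61 (-0.85 to -0.38). *Itgb1* was not alone there. *Itgae* was at -0.76 (-1.37 to -0.16), from 32 and 67 UMIs, and *Itgb2* and *Itgb7* were each at -0.22 (-0.40 to -0.04). The intervals of *Itgal*, *Itga4*, *Itgav* and *Itgb3* held 0, and no count over all genes was made in these cells. In cells with no *Ccl5* UMI the ratio of *Itgb1* was -0.13 (-0.26 to -0.01). *Ccl5* cells were 5.71% and 6.69% of the thinned cells.

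The second comparison, of tumor with LN in each genotype, set out the integrin change from node to tumor. In controls, 6 of the 9 genes were higher in tumors by 1.5-fold or more and 2 were lower, beside 27.0% and 20.6% of the 6294 genes that reached 20 CPM. In CD8-IFNγRKO mice, 6 of the 8 genes at that level were higher and 2 lower, beside 28.8% and 22.8% of 6417 genes.
*Itgb7* was lower in tumors, at -2.49 (-2.55 to -2.44) in control and -2.57 (-2.62 to -2.52) in CD8-IFNγRKO mice. *Itgae* was 143-fold (102 to 205) higher in LN than in tumors of controls and 198-fold (145 to 278) higher in LN of CD8-IFNγRKO mice, with no pseudocount. Thinned cells with an *Itgae* UMI were 12.8% and 11.9% in control and CD8-IFNγRKO LN, and 0.127% (0.0547 to 0.249%) and 0.132% (0.0661 to 0.237%) in tumors, beside 0.0791% (0.0257 to 0.184%) and 0.541% (0.395 to 0.724%) for *Cd79b*. The intervals of *Itgae* and *Cd79b* overlapped in control tumors, and *Itgae* lay below *Cd79b* in CD8-IFNγRKO tumors. The other B cell genes counted were at most at 0.0158% in tumors, lower than *Itgae* in both libraries.
*Itgb1* was higher in tumors, at 1.66 (1.58 to 1.73) and 2.37 (2.28 to 2.45). Its part in the UMIs of *Itgb1* and *Itgb7* was 12.9% (12.3 to 13.5%) in control LN and 11.2% (10.6 to 11.8%) in CD8-IFNγRKO LN, so that, with 1 UMI per 5′ end whatever the length of the transcript, *Itgb7* was the more counted β partner of the α4 chain in LN and *Itgb1* in tumors. *Itga4* itself was at 0.02 (-0.05 to 0.09) in control and 0.94 (0.88 to 1.00) in CD8-IFNγRKO mice.
*Itgav* was higher at 2.93 (2.78 to 3.07) and 2.71 (2.56 to 2.85), and *Itgb3* at 2.90 (2.68 to 3.12) and 1.93 (1.72 to 2.13). *Itga1* was 124-fold (56.6 to 337) higher in control tumors than in control LN. In CD8-IFNγRKO tumors it was 166-fold higher than a floor of 3 counts in the LN library. That floor, 0.104 CPM, lies under the exact upper limit of 0.128 CPM for 0 UMIs, so 166-fold is not a lower limit. *Itgb2* was higher at 1.44 (1.40 to 1.48) and 1.08 (1.04 to 1.12), and *Itgal* at 0.88 (0.82 to 0.94) and 0.65 (0.59 to 0.70). The tumor and LN libraries held cells of different states, and a shift in the cell states and a change within a state cannot be told apart from these pooled levels.

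**Figure D3:**
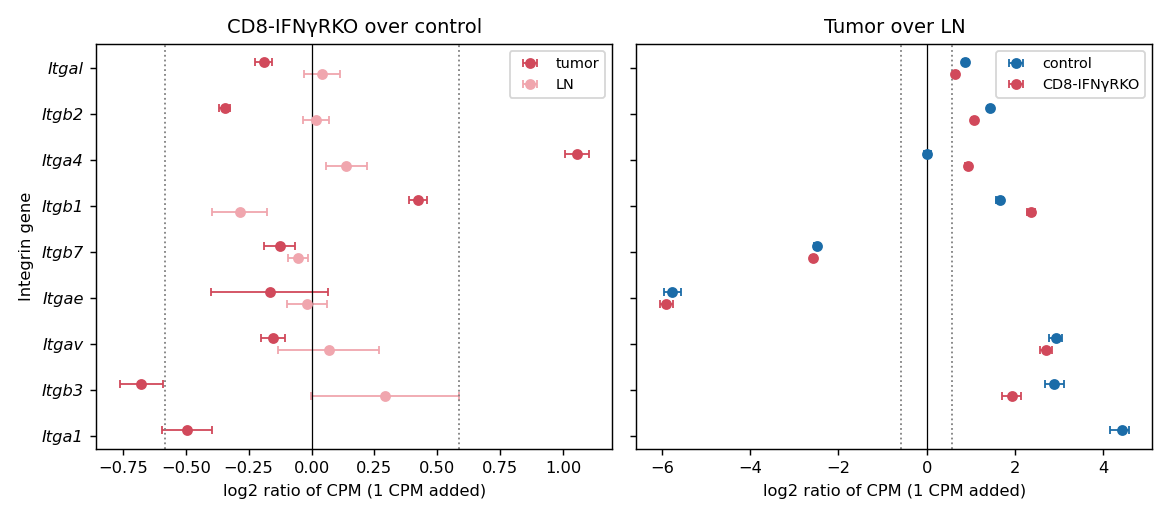
Log2 ratio of CPM (1 CPM added) for each integrin gene, CD8-IFNγRKO over control on the left and tumor over LN on the right, with conditional binomial 95% intervals. Dotted lines mark 1.5-fold, and ratios against 0 UMIs are not drawn. *Itga4* at 1.06 and *Itgb3* at -0.68 lay past the lines in the tumor comparison of genotypes.

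Within tumors, *Itgb7* was higher in Tcf7+Lag3- than in Tcf7-Lag3+ cells of both genotypes, and *Itgb2* and *Itgav* were lower. *Itgb1* was past 1.5-fold higher in control only, a difference that was not tested. *Itgb7* was at 202 (169 to 239) CPM in 143 Tcf7+Lag3- and 53.8 (51.6 to 56.2) CPM in 4394 Tcf7-Lag3+ control cells, a log2 ratio of 1.89 (1.62 to 2.14). In CD8-IFNγRKO tumors it was at 184 and 46.3 CPM, 1.97 (1.80 to 2.13). *Itgae* was counted with 12 UMIs in the Tcf7+Lag3- and 7 UMIs in the Tcf7-Lag3+ control cells, 18.2 (9.40 to 31.8) and 0.177 (0.0712 to 0.365) CPM, and with 11 and 14 UMIs in CD8-IFNγRKO tumors, 6.22 and 0.298 CPM, so that the few *Itgae* transcripts of tumors were not evenly spread. *Itgb1* was at 276 and 146 CPM in control and 284 and 206 CPM in CD8-IFNγRKO tumors, with log2 ratios of 0.92 (0.70 to 1.13) and 0.46 (0.33 to 0.59).
*Itgav* was lower in Tcf7+Lag3- cells, at -1.01 (-1.54 to -0.53) in control and -1.96 (-2.42 to -1.54) in CD8-IFNγRKO tumors, as was *Itgb2* at -1.15 (-1.38 to -0.94) and -0.68 (-0.81 to -0.55). *Itga1* was at -0.83 (-1.85 to 0.06) and -1.70 (-2.58 to -0.88), from 9 UMIs in the Tcf7+Lag3- cells of each library. *Itga4* was at 0.20 (-0.18 to 0.57) in control and -0.41 (-0.61 to -0.23) in CD8-IFNγRKO tumors. Of the genes that reached 20 CPM in a gate, 2 of 8 were past 1.5-fold higher and 3 lower in control Tcf7+Lag3- cells, beside 12.7% and 19.5% of all genes, and 1 of 7 higher and 2 lower in CD8-IFNγRKO, beside 14.1% and 19.3%. Tcf7+Lag3- cells were shallower, with a median of 3650 and 3790 UMIs against 6918 and 9739 in Tcf7-Lag3+ cells.
The lower calls turned on how the cells were parted. With the gates set on all UMIs of a cell, *Itgav* was at -1.98 (-2.74 to -1.30) and *Itga1* at -2.70 (-4.26 to -1.13) in control, *Itgal* at -0.82 (-1.17 to -0.49) and *Itgb3* at -1.21 (-2.18 to -0.37) were lower there as well, and in CD8-IFNγRKO tumors *Itga4* was lower at -0.63 (-0.83 to -0.44), while *Itgb1* was at 0.15 (0.01 to 0.28). The lower genes were then 5 of 8 in control and 3 of 7 in CD8-IFNγRKO, beside 25.4% and 23.9% of all genes, and the higher ones 2 and 1, beside 15.8% and 16.0%.
With a *Pdcd1* UMI asked of both gates, 26 control and 68 CD8-IFNγRKO Tcf7+Lag3- cells were left, and *Itgb2* was within 1.5-fold in both genotypes, at -0.49 (-0.87 to -0.14) and -0.41 (-0.68 to -0.16). *Itgav* was at -0.09 (-0.92 to 0.62) in control and -0.59 (-1.24 to -0.01) in CD8-IFNγRKO tumors. *Itgb1* and *Itgb7* were past 1.5-fold higher in both, *Itgb1* at 1.42 (1.03 to 1.79) and 1.53 (1.33 to 1.73) and *Itgb7* at 1.34 (0.67 to 1.94) and 1.60, with a lower limit of 1.17. Past 1.5-fold in either direction were 4 of 8 genes in control and 3 of 7 in CD8-IFNγRKO, beside 38.2% and 29.5% of all genes. *Itgb7* was the gene called the same way in both genotypes under each of these gates.

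Clones of 10 or more cells were set against clones of 1 cell in the same way. *Itgb7* was lower in the large clones, at -1.78 (-2.00 to -1.55) in control and -2.02 (-2.18 to -1.85) in CD8-IFNγRKO tumors. *Itgav* was higher at 1.34 (0.86 to 1.85) and 2.29 (1.80 to 2.82), *Itga1* at 2.05 (0.96 to 3.28) and 1.71 (0.86 to 2.62), and *Itgb2* at 1.00 (0.83 to 1.19) and 0.92 (0.78 to 1.06). *Itga4* differed in sign between the genotypes, at 107 CPM in control clones of 1 cell and 73.5 CPM in large ones, but at 80.1 and 159 CPM in CD8-IFNγRKO tumors, so that its log2 ratio was -0.53 (-0.82 to -0.22) in control and 0.98 (0.75 to 1.23) in CD8-IFNγRKO tumors. Past 1.5-fold in either direction, 6 of 8 genes at 20 CPM or more differed in control tumors, beside 26.3% of all genes, and 5 of 7 in CD8-IFNγRKO tumors, beside 37.2%. *Itgav*, *Itgb2* and *Itgb3* were on the higher side and *Itgb7* on the lower side in both. Large clones were 91.0% and 91.1% of the cells with a clone. Cells of clones of 1 cell were shallower, with a median of 4041 UMIs in control and 3997.5 in CD8-IFNγRKO tumors. In large clones the medians were 6314 and 10485.5 UMIs, so that the gap in depth was wider in CD8-IFNγRKO tumors.
Among the 21 CD8-IFNγRKO clones of 50 or more cells, *Itgb7* ran from 11.6 to 326 CPM with a median of 48.3, beside 16.6 to 88.6 CPM over the 10 such control clones. *Itgb2* was the steadiest, from 363 to 567 CPM in CD8-IFNγRKO and from 530 to 670 CPM in control clones.

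**Figure D4:**
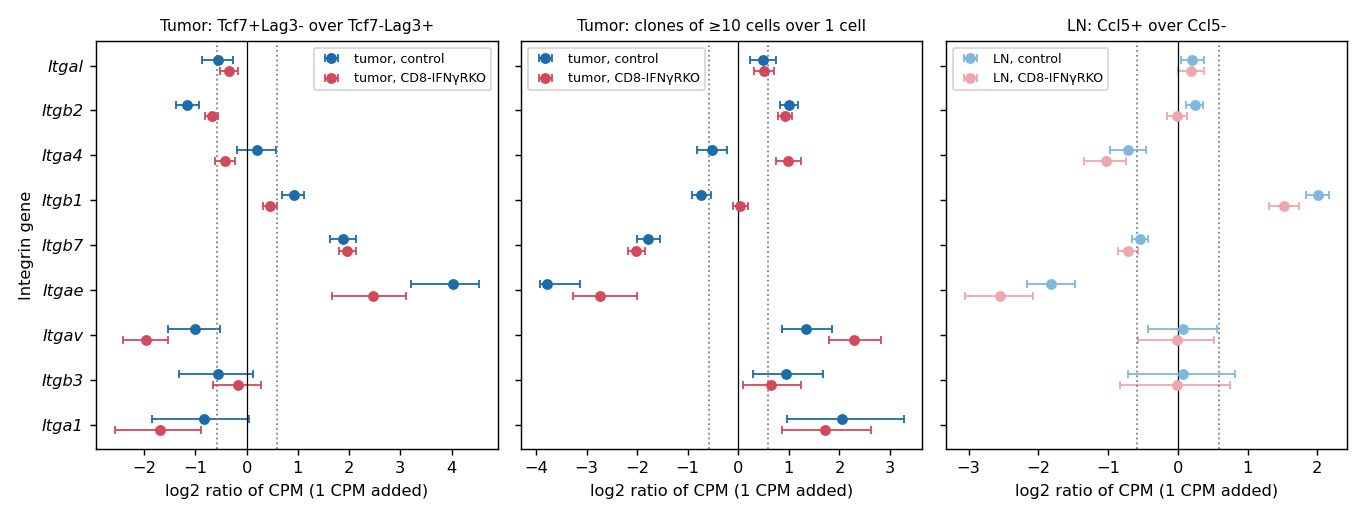
Log2 ratio of CPM (1 CPM added) for each integrin gene between Tcf7+Lag3- and Tcf7-Lag3+ tumor cells (left), large clones and clones of 1 cell (middle), and LN cells with and without a *Ccl5* UMI (right), with conditional binomial 95% intervals and dotted lines at 1.5-fold. *Itgb7* lay at 1.89 and 1.97 on the left, and *Itga4* lay on opposite sides of 0 in the middle.

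In LN, the cells with a *Ccl5* UMI, 428 in control and 382 in CD8-IFNγRKO mice, differed from the rest past 1.5-fold in *Itgb1*, *Itgae* and *Itga4* in both genotypes. *Itgb2* was within 1.5-fold, at 0.24 and -0.01. *Itgb1* was higher in them, at 158 and 38.6 CPM in control LN, a log2 ratio of 2.01 (1.84 to 2.17), and at 103 and 35.1 CPM in CD8-IFNγRKO LN, 1.52 (1.31 to 1.73). *Itgae* was lower, at -1.81 (-2.17 to -1.48) and -2.55 (-3.06 to -2.08), and so was *Itga4*, at -0.71 (-0.98 to -0.46) and -1.04 (-1.34 to -0.74). *Itgb7* was at -0.55 (-0.67 to -0.43) and -0.71 (-0.85 to -0.57). All 6 *Itga1* UMIs of control LN were in *Ccl5* cells. Of the 6 genes that reached 20 CPM, 1 was higher and 2 lower past 1.5-fold in control, beside 2.81% and 2.83% of all genes, and 1 higher and 3 lower in CD8-IFNγRKO LN, beside 2.37% and 3.89%.

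Chains known to pair were looked for in the same thinned cell. Over the pairs seen in more than 10 cells of a library, the share of cells with both was 0.70 to 1.11 times the product of the single shares, lowest for *Itga4* and *Itgb1* in CD8-IFNγRKO LN, with 31 cells. *Itgal* and *Itgb2* were found together in 16.5% of thinned control tumor cells, 1.07 times the product of the single shares, and *Itga4* and *Itgb1* together in 2.66% (2.28 to 3.08%) of control and 7.36% (6.81 to 7.94%) of CD8-IFNγRKO tumor cells, 1.03 and 1.10 times the product. *Itga4* and *Itgb7* were found together in 4.87% and 5.47% of control and CD8-IFNγRKO LN cells and in 1.14% and 2.25% of the tumor cells. *Itgae* and *Itgb7* were found together in 5.98% and 5.10% of LN cells, 1.11 and 1.06 times the product. A UMI pair in sparse counts tells of transcripts, not of paired protein.

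Of 17 other integrin chain genes, *Itga6*, which encodes a laminin receptor chain, was the only one that reached 20 CPM in any library, at 28.9 and 34.2 CPM in control and CD8-IFNγRKO LN and 8.18 and 8.14 CPM in tumors. The list of 33 genes of integrin activation and adhesion, regulators and partners of either direction, held 28 that reached 20 CPM. In tumors 1 of these was higher in CD8-IFNγRKO and 0 were lower, beside 4.79% and 3.64% of all genes, and in LN 0 were either, beside 0.108% and 0.197%, so that no shift of the list is read. The higher gene was *Cd9*, a tetraspanin that sits beside integrins in the membrane, at 24.9 CPM in CD8-IFNγRKO and 12.1 CPM in control tumors.
From LN to tumor, 6 of these 28 genes were higher and 8 lower in control, and 5 and 8 in CD8-IFNγRKO mice, at median log2 ratios of 0.03 and 0.0018. Over all genes 27.0% were higher and 20.6% lower in control and 28.8% and 22.8% in CD8-IFNγRKO mice. The list thus held more lower than higher genes and all genes the reverse, a difference that was not tested. The lean of all genes turned with the scaling. With T cell receptor, heat shock, ribosomal and mitochondrial genes left out of the library size, 17.7% of all genes were higher and 33.6% lower in control. In CD8-IFNγRKO mice 19.7% were higher and 33.3% lower. The list was not recounted under that scaling, so no shift of the list is read. *Rasgrp2*, the exchange factor that activates Rap1 ahead of LFA-1, had 19.8 and 24.2 CPM in control and CD8-IFNγRKO tumors beside 171 and 197 CPM in LN. *Actn1*, an actin crosslinker, had 44.8 and 35.8 CPM in tumors beside 258 and 278 CPM in LN, and *Cyth1*, a regulator of LFA-1 adhesion, at 28.9 and 23.1 CPM and 111 and 124 CPM. *Apbb1ip*, *Stk4*, *Skap1* and *Rassf5* were lower in tumors of both genotypes, from -0.66 to -1.14, with *Cd9* lower only in control and *Fyb* only in CD8-IFNγRKO mice past 1.5-fold, a difference that was not tested. *Zyx*, a focal adhesion protein, had 518 and 429 CPM in tumors beside 205 and 236 CPM in LN, and *Cd47*, *Rap1a*, *Ilk* and *Itgb1bp1* were past 1.5-fold higher in both genotypes, with *Slc3a2* at 0.70 in control.
Among 13 integrin ligands, *Spp1*, which encodes osteopontin, a ligand of αv and α4 integrins, was at 373 CPM in control and 116 CPM in CD8-IFNγRKO tumors, -1.68 (-1.72 to -1.65), with 0 and 1 UMIs in LN. It was the only ligand gene past 1.5-fold between genotypes in tumors, of 4 that reached 20 CPM. Over all genes 4.79% were higher and 3.64% lower, so that 1 gene is not read as a shift of the list. *Lgals3* had 827 and 581 CPM in tumors beside 2.74 and 1.53 CPM in LN. *Icam1* had 101 and 78.5 CPM in tumors beside 54.1 and 45.0 CPM in LN, whereas *Icam2* had 46.7 and 49.1 CPM in LN and was lower in tumors, at log2 ratios of -1.99 and -1.76. *Tgfb1*, whose latent form is bound by αv integrins, was higher in control tumors than LN at 0.98 (0.93 to 1.03), and at 0.48 (0.43 to 0.53) in CD8-IFNγRKO mice, within 1.5-fold.

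The genes whose levels ran most like each member were sought over 12 profiles, the Tcf7+Lag3-, Tcf7-Lag3+, cycling and non-cycling cells of each tumor library and the *Ccl5* positive and negative cells of each LN library, among 6551 genes with at least 20 CPM. The profiles share libraries and cells, and tissue alone sets much of each correlation. *Itga4* was the member with the least like partners, *Ddit4* with a Pearson r of 0.967 and *Nelfb* with 0.935. For *Itgb3* they were *Icos* and *Batf*, with 0.996 and 0.994, for *Itga1* *Klri2* and *Cd38*, with 0.992 and 0.992, for *Itgb1* *Cldnd1*, with 0.983, and for *Itgb7* *Zscan26* and *Scml4*, with 0.995 and 0.995. *Itgal* ran with *S100a13* and *Zap70* (0.993 and 0.991), *Itgb2* with *Myo10* and *Txndc9* (0.996 and 0.995), *Itgae* with *Atp2a3* and *Cdk11b* (0.992 and 0.990) and *Itgav* with *Serpinb9b* and *Slc22a15* (0.998 and 0.997).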

How the data were processed

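Expression was read from 4 libraries of CD8 T cells and clones from 2 tumor T cell receptor libraries. The deposited counts are unnormalized UMIs for each gene in each called cell, made by the authors with Cell Ranger 6.0.0 on mm10. Cells were kept if 200 to 6000 genes were detected, mitochondrial genes took no more than 3% and any single gene no more than 20% of UMIs, *Cd2*, *Cd8a* and *Cd8b1* all had a UMI, and fewer than 3 macrophage or dendritic cell markers did. No doublet caller was run and doublets were kept, with the deepest cells left out as an alternative. Counts were summed per library, gate or clone and given as CPM, with ratios after adding 1 CPM. For shares and gates, cells were thinned to 1600 UMIs, which left out 701 and 277 control and CD8-IFNγRKO tumor cells and 237 and 41 LN cells. Cells of a clone had the same V gene, J gene and CDR3 nucleotides in the α and in the β chain. With 1 library a group, no test was run. Intervals are exact (Poisson, conditional binomial, Clopper-Pearson). Only the interval of ratios was tried on simulated counts. These were drawn with counting error alone, so spread between cells, clones or mice was not checked. The genes and lists were chosen with earlier results of these data known. Named genes were the 9 members, other integrins with at least 20 CPM, list genes past 1.5-fold and the 2 genes most like each member, of which 1 for *Itgb1* is not reported here; *Cst3*, *Cd79b* and *Ifngr1* were named to describe the libraries. SciPy 1.17.1 and NumPy 2.4.6 were used under Python 3.11.15.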

Additional observations from a re-analysis of the deposited data

Results flagged for a closer look

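With 1 library a group, no library could stand apart within its group. Of 72 pairs of effects under the same contrast, 5 had opposite signs with counting intervals on opposite sides of 0, and none of these differences was tested. *Itgb1* had a genotype log2 ratio, CD8-IFNγRKO over control, of 0.42 in tumors and -0.29 in LN, a difference of 0.71. For *Itga4*, the ratio of clones of 10 or more cells over clones of 1 cell was 0.98 in CD8-IFNγRKO and -0.53 in control tumors, a difference of 1.51. The same UMIs read the other way give a genotype ratio of *Itga4* of 1.11 in large clones and -0.41 in clones of 1 cell, again a difference of 1.51. The genotype ratio of *Itgb1* was 0.42 in large clones and -0.35 in clones of 1 cell, a difference of 0.77. The ratio of cycling over other cells of *Itgb1* was 0.05 in CD8-IFNγRKO and -0.08 in control tumors, a difference of 0.13.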

How the results depend on the processing

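Of 96 recounts of the integrin genes higher or lower in CD8-IFNγRKO over control and in tumor over LN, 90 gave the same count, as did 14 more added after the data were seen. With 2-fold as the limit, and with 10 CPM added, 0 genes were lower in CD8-IFNγRKO tumors, since *Itgb3* no longer passed. The genes higher in tumors than LN were 5 in control with 2-fold as the limit, and in CD8-IFNγRKO mice 4 with 2-fold, 5 scaled by the median of ratios and 7 with thinned cells. An equal count can hold other genes. With T cell receptor, heat shock, ribosomal and mitochondrial genes left out of the library size, *Itgal* fell out in CD8-IFNγRKO mice and *Itga1* came in. Scaling by the median of ratios dropped *Itgal* there as well. Its ratio in CD8-IFNγRKO mice ran from 0.39 to 0.80 over the settings chosen at the outset. Between Tcf7+Lag3- and Tcf7-Lag3+ cells the lower control genes went from 3 to 5 with gates on all UMIs. With a *Pdcd1* UMI asked of both gates, added after the data were seen, 1 gene was lower in each genotype, 2 were higher in CD8-IFNγRKO and 3 in control, and in control *Itga1*, at 0.62 from 6 UMIs, and *Itgae*, at -0.24 from 0 UMIs, changed sign. Of 72 ratios between gates, 24 left their interval with gates on all UMIs and none past 1.5-fold changed sign. The tumor genotype ratio of *Itga4* ran from 0.98 to 1.19 over the settings chosen at the outset and from 0.71 to 1.00 over the added ones, which left out or reweighted large clones, lowest with each clone of 50 or more cells weighted the same. The added settings that left out clones kept the cells with no clone, some of which may belong to those clones. The tumor genotype ratio of *Itgb3* ran from -0.70 to -0.52 over the settings chosen at the outset. No paired analysis was possible because each group held 1 library. Counts under about 20 UMIs, as for *Itgae* in tumors by gate and *Itga1* in LN, were too few for ratios to be read closely.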
